A study of Rattus norvegicus with 28 samples.

Results

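Rat kidney fibroblasts given TGF-β1 in low methionine were compared here with untreated control cells, gene by gene. Members were all genes with at least 1 FPKM (fragments per kilobase of gene, scaled to library size) in at least 2 of the 4 libraries of these groups, which left 11914 of 30178 listed genes. The question was what remains of the TGF-β programme under methionine restriction, and what is new against resting cells. All cells were NRK-49F, an established line of rat kidney fibroblasts, grown in 10% serum. Each of 4 groups had 2 RNA-seq libraries: control, TGF-β1 alone (TGFb), TGF-β1 with methionine restriction (TGFb_MetR), and TGF-β1 with small interfering RNA against Hoxc8, which served only to estimate the spread. Cells were starved for 24 h in 0.2% serum. TGF-β1 was then given at 5 ng per uL, as the labels print the dose, and the libraries that received it are labelled 48 h. The restriction medium held 30 uM methionine, and its own control medium 200 uM. It was made from Eagle's salts with dialyzed serum, while the cells were grown in DMEM. No time is given for the control libraries, nor which medium they and the libraries with TGF-β1 alone had. No library had restricted methionine without TGF-β1, so in this comparison the cytokine, the methionine supply and the medium cannot be told apart. Whether the libraries of a group stem from different cultures is not in the labels. The p-values therefore reflect only how far libraries of the same group differ, pooled over the 4 groups, and that difference may be technical. MetR below stands for TGF-β1 with methionine restriction.

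TGF-β1 binds a pair of serine/threonine kinase receptors, which phosphorylate Smad2 and Smad3. With Smad4 these enter the nucleus and switch on matrix, cytoskeletal and feedback genes, and in the kidney this turns fibroblasts into contractile, matrix-secreting myofibroblasts, the cells of renal fibrosis. Methionine is an essential amino acid and the source of S-adenosylmethionine, the methyl donor of histone methylation. When amino acids run short, the kinase GCN2 slows translation and raises ATF4, which drives amino acid transporters and synthetic enzymes.

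Reads recovered from the steps of the FPKM values ranged from 15118113 to 20146870 per library over the series, a ratio of 1.33. The TGFb_MetR libraries differed more from each other than those of any other group: over the members the SD between replicates was 0.301 on log2(FPKM + 1), against 0.167 for control and 0.213 for TGF-β1 alone, and 332 members differed at least 2-fold between them, against 124 and 132. Replicate 1 was the higher for 4836 of the 11914 members but for 18 of 19 collagens and 22 of 22 collagen-modifying genes, so results on the matrix are given without each of these libraries too. Of 11 fibroblast markers in the table, 9 were members. Col1a1, Vim and Fn1 were at 886 FPKM or more in all 6 libraries of control, TGFb and TGFb_MetR, Thy1 was listed at 0 and Dcn reached 1.08. The fibroblast markers together summed to 7903 and 7931 FPKM in control and to 12327 and 7880 under MetR. Epcam and Umod, markers of tubular epithelium, were listed at 0, Cdh1 reached 0.0507 and the leukocyte marker Ptprc 0.0196. Of 14 markers of tubular epithelium 4 were members and 2 of these rose, Cdh16 from a listed 0 in both controls to 2.53 and 2.76 FPKM and Cubn from 0.0822 and 0.107 to 3.04 and 1.83. Of these members 1 fell, Aqp1, from 3.21 and 3.26 FPKM in control to 0.376 and 0.296 under MetR. Krt8 was at 238 and 236 FPKM in control and 230.3 and 251.9 under MetR, while Krt18, its usual partner keratin, reached 0.0411. The 14 summed to 242 and 240.1 in control and 237 and 258 under MetR, and the 9 endothelial markers to 1.19 and 1.30 and to 3.96 and 1.77. Immune markers, 2 members of 12, summed to 3.02 and 3.72 in control and 5.06 and 4.26 under MetR, where Fcer1g rose from 1.41 and 0.982 to 3.22 and 3.08 FPKM. The part of these other markers in the results was not tested. In bulk RNA, fewer cells of a type and less RNA per cell cannot be told apart.

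Against control, 3411 members rose (28.6%) and 3572 fell (30.0%) under MetR, by limma at an adjusted p of 0.05, where 28.0% and 29.3% of all 12315 tested genes did. The median change was -0.01 on log2(FPKM + 1). Changes of at least 2-fold were called for 1154 members upward (9.69%, and 9.44% of all tested) and 1579 downward (13.3%, and 12.8%). TGF-β1 alone raised 1199 of the same members (10.1%) and lowered 3508 (29.4%), against 10.3% and 28.6% of all tested genes, with a median of -0.20. Both comparisons use the same control libraries. Between the groups with and without restriction, 4267 members (35.8%) were higher with it and 2269 (19.0%) lower, with a median of 0.19, against 34.8% and 19.0% of all tested genes. The split of rises and falls with TGF-β1 alone moved with the scaling of the libraries. After rescaling by median ratios, 2275 members rose and 2080 fell with TGF-β1 alone, and 3116 were higher and 3192 lower under MetR than with TGF-β1 alone, whereas the split against control under MetR was 3532 rises and 3518 falls. Below, changes are differences of log2(FPKM + 1), which understate the change of genes near 0, each with its SE and a Benjamini-Hochberg adjusted p from limma, with 2 libraries per group. A gene is called raised or lowered where that p is under 0.05. Gene lists are described by their members: the 28 lists hold 928 distinct genes of the table, of which 795 passed the filter.

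The largest rises under MetR belonged to Gadd45g, Postn, Rrad, Cyp3a9, Il1rl1, Fmr1nb, Phlda1, Bmpr1b, Enpp1, Cd28, Ppef1 and Gadd45b, and the largest falls to Ccn3, Aox1, Aldh3a1, Top2a, Pla2g2a, Plpp3, Pdcd5, Kazald1, Scara5, Calml4, Angptl2 and Nkain4. Rrad, a small GTPase that restrains calcium channels, read 3.13 and 2.83 FPKM in control, 8.99 and 9.42 under TGF-β1 alone and 124 and 163 under MetR (5.17 ± 0.16, adjusted p = 4.07e-06). Bmpr1b, a receptor for BMP ligands, read 0.0881 and 0.0890 FPKM at rest, 19.5 and 17.7 under MetR and 0.942 and 1.06 under TGF-β1 alone (4.17 ± 0.13, adjusted p = 4.07e-06). In both genes the libraries under MetR stood apart from all 4 others. Cd28, best known as a costimulatory receptor of T cells, read 15.1 and 32.1 FPKM under MetR, 0.437 and 0.397 in control and 2.41 and 1.38 after TGF-β1 alone (4.03 ± 0.34, adjusted p = 7.42e-05). Plpp3, a phosphatase of lysophosphatidic acid, read 58.5 and 60.5 FPKM in control, 5.37 and 5.88 under TGF-β1 alone and 3.96 and 1.75 under MetR (-4.03 ± 0.24, adjusted p = 2.52e-05). Kazald1, a secreted protein with an insulin-like growth factor binding domain, read 37.1 and 35.1 FPKM at rest, 2.05 and 1.02 under MetR and 18.9 and 24.1 under TGF-β1 alone (-3.90 ± 0.20, adjusted p = 1.63e-05). With TGF-β1 alone Kazald1 lay between the other groups, and Plpp3 was already low.

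Upstream sequences of 5 genes are shown because their levels carry the main contrasts: the myofibroblast actin Acta2, the early growth factor response gene Egr1, the stress gene Gadd45g, and the ATF4 targets Chac1 and Trib3. They were chosen with their values known. All come from RefSeq on GRCr8 and run 5′ to 3′ on the gene's strand, 250 bases up to the start for the first 3 and 30 bases around a match for the others. Motifs were searched on both strands from 250 bases before to 50 after the start in 27457 promoters. Capitals mark GTCTG, the core of the Smad-binding element, or its reverse complement in Acta2 (chr1:241172504-241172753, minus strand), the strict CArG box bound by SRF in Egr1 (chr18:26736828-26737077, plus strand), and TGATGNAA, the element bound by ATF4 with C/EBP proteins, in Gadd45g (chr17:13530352-13530601, minus strand), Chac1 (chr3:126795953-126795982, plus strand) and Trib3 (chr3:161275536-161275565, minus strand).
Acta2: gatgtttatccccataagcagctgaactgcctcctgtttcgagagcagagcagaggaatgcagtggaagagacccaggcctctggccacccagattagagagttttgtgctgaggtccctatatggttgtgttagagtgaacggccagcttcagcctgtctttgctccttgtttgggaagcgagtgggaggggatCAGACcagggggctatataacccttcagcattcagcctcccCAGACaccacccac
Egr1: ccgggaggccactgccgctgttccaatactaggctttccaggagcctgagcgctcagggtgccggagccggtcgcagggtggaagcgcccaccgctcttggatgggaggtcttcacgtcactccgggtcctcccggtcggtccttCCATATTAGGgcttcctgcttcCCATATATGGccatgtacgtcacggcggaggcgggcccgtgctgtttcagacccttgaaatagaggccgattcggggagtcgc
Gadd45g: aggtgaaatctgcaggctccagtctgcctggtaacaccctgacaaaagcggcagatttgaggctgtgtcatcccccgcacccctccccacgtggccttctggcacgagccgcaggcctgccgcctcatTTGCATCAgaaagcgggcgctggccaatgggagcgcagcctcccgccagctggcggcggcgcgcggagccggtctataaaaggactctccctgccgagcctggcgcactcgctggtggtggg
Chac1: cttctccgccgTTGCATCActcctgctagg
Trib3: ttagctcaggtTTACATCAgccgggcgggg
In Acta2 the matches lie at -55 to -51 and at -14 to -10 from the start, and no strict CArG box was found. The search allowed no mismatch, and the bases shown for Acta2 hold ccctatatgg and ccttgtttgg, each a letter away from that box. Egr1 holds CArG boxes at -105 to -96 and -83 to -74. TGATGNAA lies at -122 to -115 in Gadd45g, at -167 to -160 in Chac1 and at -21 to -14 in Trib3, each read on the opposite strand. GTCTG occurred in 49.97% of all promoters, the CArG box in 1.64% and TGATGNAA in 3.82%. Among the 8540 members with a promoter entry the shares were 48.0%, 1.26% and 1.90%. Of 163 named genes with a promoter entry 4 held TGATGNAA: Gadd45g, Chac1, Trib3 and Tspan8, which fell under MetR. Slc7a5, Slc38a2, Ppp1r15a and Stc2, which rose, held none. A match describes these letters alone, and a link to the changes was not tested.

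The contractile programme that TGF-β1 alone raised was mostly not raised under MetR. Of 26 members of the contractile list, 19 rose and 2 fell with TGF-β1 alone (median 0.71). Under MetR 9 rose (34.6%, against 28.6% of all members) and 7 fell (26.9%, against 30.0%). The median under MetR was 0.03, or -0.02 without TGFb_MetR replicate 1 and 0.25 under quantile normalization. Between the treated groups, 14 were lower under MetR and 2 higher. Acta2, the smooth muscle actin that defines myofibroblasts, read 47.3 and 29.2 FPKM under MetR, 12.5 and 11.3 in control and 527 and 550.5 after TGF-β1 alone. Both libraries under MetR lay above both controls and far below both libraries with TGF-β1 alone. Acta2 was thus 45.4 times the control mean with TGF-β1 alone and 3.22 times under MetR (1.57 ± 0.20, adjusted p = 0.000474 against control, -3.82 ± 0.20, adjusted p = 4.50e-05 against TGF-β1 alone). Tagln, the actin-binding protein transgelin, read 2.18 and 2.92 FPKM in control, 34.5 and 37.8 under TGF-β1 alone and 5.22 and 2.46 under MetR. Its libraries under MetR fell between and above the controls and the change was not called (0.39 ± 0.26, adjusted p = 0.226), though it was without TGFb_MetR replicate 2 (0.82, adjusted p = 0.00589). Cald1, caldesmon, read 139 and 137 FPKM at rest, 185 and 142 under MetR and 665 and 625 under TGF-β1 alone, and it too was not called against control (0.23 ± 0.13, adjusted p = 0.162) except without TGFb_MetR replicate 2 (0.42, adjusted p = 0.00645). Tpm2, a tropomyosin of the actin filament, went below rest. It read 83.7 and 50.5 FPKM under MetR, 268 and 286 in control and 692 and 879 after TGF-β1 alone, a rise with TGF-β1 alone (1.49 ± 0.22) and a fall under MetR (-2.07 ± 0.22, adjusted p = 0.000222), with no overlap of groups. Not all of the cytoskeleton followed. Zyx, a focal adhesion protein, read 138 and 145 FPKM in control, 301 and 295 under TGF-β1 alone and 299.9 and 355 under MetR (1.20 ± 0.11, adjusted p = 9.22e-05 under MetR against control). Pdlim7, which sits on actin bundles, rose by 1.21 ± 0.10 and Srf, the transcription factor of the CArG box, by 1.12 ± 0.11. Smtn, smoothelin, rose under MetR (55.3 and 53.8 FPKM against 18.7 and 21.3 in control, 1.41 ± 0.09, adjusted p = 3.53e-05) and was at 21.0 and 20.7 with TGF-β1 alone. It is also in the smooth muscle marker list, of which 3 of 10 were members: 1 rose, 1 fell and 1 was not called. The others among these, Myh11 and Notch3, read lower under MetR. Myh11 was at 2.26 and 1.78 FPKM in control and 0.696 and 0.564 under MetR, and Notch3 at 1.56 and 1.42 and at 1.05 and 0.532.

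**Figure D1:**
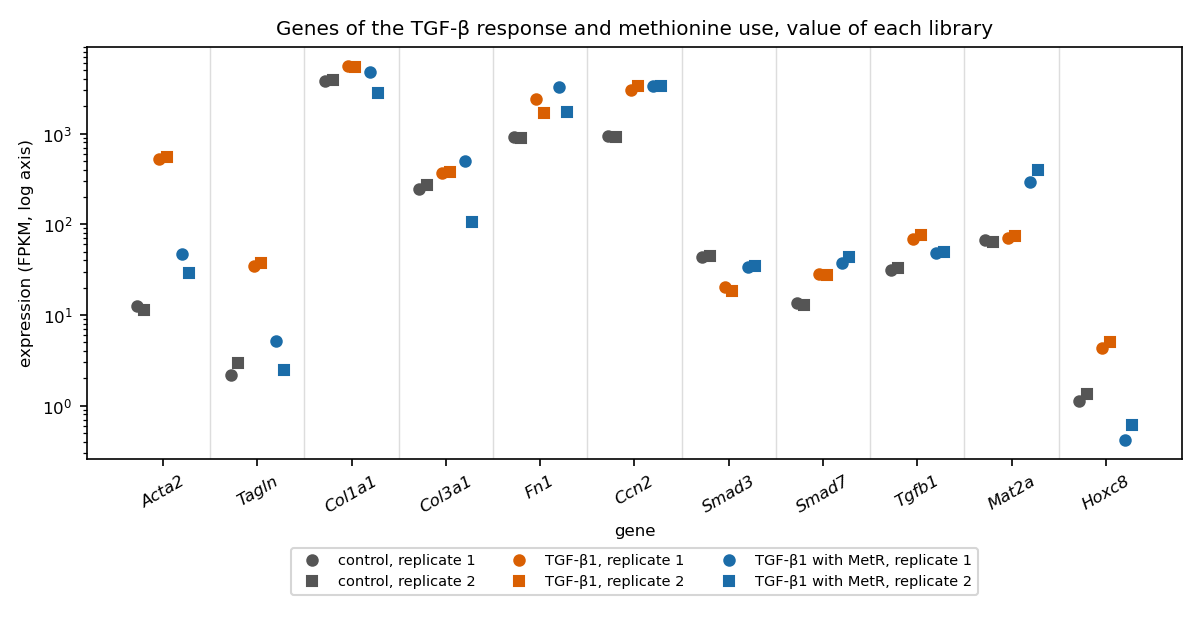
FPKM (log axis) of 11 genes named whatever their result, 1 point per library, for control, TGF-β1 alone and MetR. Acta2, Tagln and Hoxc8 stand far lower under MetR than with TGF-β1 alone, Ccn2 and Fn1 do not, and Mat2a is high under MetR alone of the 3 groups.

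Most early Smad targets and feedback inhibitors were above rest under MetR. Of 27 list members, 21 rose against control under MetR (77.8%, against 28.6% of all members) and 4 fell (14.8%, against 30.0%). The median was 1.26 (all members -0.01). With TGF-β1 alone 15 rose and 12 were not called (median 0.72, all members -0.20). Between the treated groups 10 were higher under MetR, 5 lower and 12 not called (median 0.25, all members 0.19). Ccn2, connective tissue growth factor, read 947 and 926 FPKM at rest, 3391 and 3400.1 under MetR and 3058 and 3342 under TGF-β1 alone. Both treated groups were over 3 times the control level, and their difference was not called (1.86 ± 0.11, adjusted p = 2.52e-05 against control, 0.09 ± 0.11, adjusted p = 0.539 against TGF-β1 alone). Pmepa1, a feedback inhibitor that sequesters Smads, was 286 and 339 FPKM under MetR, 44.6 and 42.1 in control and 356 and 364 after TGF-β1 alone (2.82 ± 0.11, adjusted p = 6.94e-06). Smad7, the inhibitory Smad that blocks the receptor, read 13.6 and 12.8 FPKM in control, 28.3 and 27.3 under TGF-β1 alone and 37.2 and 43.6 under MetR, and was higher under MetR than with TGF-β1 alone (0.52 ± 0.11, adjusted p = 0.00506). Junb, an AP-1 subunit, reached 296 and 603 FPKM from 30.9 and 37.5 in control (3.59 ± 0.29, adjusted p = 6.88e-05). Bhlhe40, a transcriptional repressor, rose by 2.54 ± 0.11, Sphk1, which makes sphingosine-1-phosphate, by 2.50 ± 0.23, and Ccn1, a matricellular protein, by 2.23 ± 0.18. The 4 members that fell were Id1, Id2, Id3 and Smad6, genes known to respond to BMP signals. Named after their values were seen, they changed by -0.89 ± 0.24, -1.46 ± 0.26, -0.52 ± 0.17 and -2.11 ± 0.39, and without control replicate 2 the count of falls was 2.

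Of 22 ligands, receptors and Smads among the members, 10 rose (45.5%, against 28.6% of all members) and 7 fell (31.8%, against 30.0%), with a median of 0.23. Tgfb1, the ligand itself, read 31.1 and 32.9 FPKM at rest, 48.1 and 49.4 under MetR and 68.5 and 75.9 under TGF-β1 alone, an intermediate level without overlap (0.59 ± 0.09, adjusted p = 0.00111). Tgfb2 read 24.8 and 11.6 FPKM under MetR, 43.6 and 44.7 in control and 121 and 114 after TGF-β1 alone. It was raised by TGF-β1 alone (1.39 ± 0.28) but below control under MetR (-1.32 ± 0.28, adjusted p = 0.00531, and -0.81 without TGFb_MetR replicate 2). The signalling receptor Tgfbr2 was lower than control in both treated groups, at 35.0 and 26.2 FPKM under MetR and 37.6 and 25.7 without, from 82.3 and 85.2 (-1.44 ± 0.19, adjusted p = 0.000599). Tgfbr3, the co-receptor betaglycan, fell by 1.52 ± 0.16 and Ltbp4, which holds latent TGF-β in the matrix, fell by 1.90 ± 0.18, while Ltbp2 rose by 1.09 ± 0.16 and Smad1, of the BMP branch, by 0.93 ± 0.09. Smad3 read 43.8 and 45.2 FPKM in control, 20.3 and 18.2 under TGF-β1 alone and 33.6 and 34.8 under MetR. Its fall against control under MetR was -0.37 ± 0.11, adjusted p = 0.0208, and without control replicate 1 or 2 the adjusted p was 0.0849 or 0.116.

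The matrix did not move as a block, and the TGFb_MetR replicates disagreed on it. Of 19 collagens 4 rose (21.1%, against 28.6% of all members) and 6 fell (31.6%, against 30.0%), with a median of -0.09. Without TGFb_MetR replicate 2 the counts were 8 and 5 (median 0.31), and without replicate 1 they were 4 and 11 (median -0.48). Col1a1, the main chain of fibrillar collagen, read 3852 and 3949 FPKM at rest, 4837 and 2788 under MetR and 5627 and 5449 under TGF-β1 alone and was not called (-0.09 ± 0.24, adjusted p = 0.776). Col3a1 read 506 and 105 FPKM under MetR, 247 and 269 in control and 367 and 374 after TGF-β1 alone: replicate 1 under MetR was the highest of these libraries and replicate 2 the lowest. Its change was -0.16 ± 0.59, adjusted p = 0.837, against 0.97 without replicate 2 and -1.29 without replicate 1. Col8a1, a short-chain collagen, dropped from 659 and 641 FPKM in control to 94.0 and 38.5 (-3.41 ± 0.34, adjusted p = 0.000151), and was at 393 and 408 with TGF-β1 alone. Col6a1, of the microfibrils, read 161 and 169 FPKM in control, 26.8 and 23.2 under TGF-β1 alone and 94.3 and 47.1 under MetR (-1.30 ± 0.27, adjusted p = 0.00499, or -0.80 without TGFb_MetR replicate 2). Col14a1 fell by 2.31 ± 0.33 and Col18a1 fell by 1.67 ± 0.14. Col11a1, a minor fibrillar collagen, rose from 0.0145 and 0.0147 to 11.997 and 2.79 FPKM (2.79 ± 0.48, adjusted p = 0.00201).

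Enzymes that modify and cross-link collagen were lowered below rest. Of 22 members 13 fell (59.1%, against 30.0% of all members) and 1 rose (4.55%, against 28.6%), with a median of -0.56. With TGF-β1 alone 7 rose and 3 fell (median 0.19). Against TGF-β1 alone 16 were lower under MetR and 6 not called. Without TGFb_MetR replicate 1 the falls against control numbered 17 (median -0.79), and without replicate 2 10, with 5 rises (median -0.32). Loxl1, a lysyl oxidase that cross-links elastin and collagen, read 101 and 98.3 FPKM at rest, 12.7 and 7.19 under MetR and 82.2 and 80.5 under TGF-β1 alone (-3.25 ± 0.21, adjusted p = 3.11e-05). P3h3, a prolyl 3-hydroxylase, went from 134 and 129.9 to 27.7 and 17.3 FPKM (-2.54 ± 0.19, adjusted p = 5.37e-05). P3h4 (-1.88 ± 0.22), the prolyl isomerase Fkbp14 (-1.62 ± 0.12) and the procollagen N-proteinases Adamts2 (-1.38 ± 0.18) and Adamts14 (-1.94 ± 0.23) fell too.

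Among matrix glycoproteins 10 of 26 members rose (38.5%, against 28.6% of all members) and 10 fell (38.5%, against 30.0%), with a median of -0.22. Without TGFb_MetR replicate 1 the counts were 9 and 14 (median -0.50), without replicate 2 12 and 10 (median 0.11), and without control replicate 2 7 and 8 (median -0.14). Postn, periostin, a matricellular protein of fibrosis, read 373 and 224 FPKM under MetR, 3.88 and 3.65 in control and 85.5 and 89.7 after TGF-β1 alone. Its libraries under MetR were above those with TGF-β1 alone (5.93 ± 0.21, adjusted p = 5.92e-06 against control, 1.71 ± 0.21, adjusted p = 0.000551 against TGF-β1 alone). Fn1, fibronectin, read 923 and 886 FPKM in control, 2411 and 1687 under TGF-β1 alone and 3246 and 1737 under MetR (1.39 ± 0.29, adjusted p = 0.00465). Fbln2, fibulin 2, went from 58.4 and 62.1 to 560.1 and 499.9 (3.12 ± 0.11, adjusted p = 5.92e-06). Sparc, a collagen-binding protein, read 1171 and 1253 FPKM at rest, 772 and 212 under MetR and 2001 and 2112 under TGF-β1 alone. Its fall was -1.58 ± 0.49 (adjusted p = 0.0266), and the call was lost in 7 of 17 alternatives. The change was -2.51 without TGFb_MetR replicate 1 and -0.65 without TGFb_MetR replicate 2. Lum, the proteoglycan lumican, was at 36.5 and 6.53 FPKM from 2.02 and 1.93 (2.50 ± 0.62, adjusted p = 0.00997, or 1.34 without TGFb_MetR replicate 1). Thbs2, thrombospondin 2, was at 18.7 and 3.79 from 1.40 and 1.32 (2.04 ± 0.54, adjusted p = 0.0134), with an adjusted p of 0.0550 and 0.0593 without control replicate 1 or 2 and a change of 1.02 without TGFb_MetR replicate 1. Of 17 matrix proteases and inhibitors 7 rose (41.2%, against 28.6% of all members) and 3 fell (17.6%, against 30.0%). Their median was 0.57, or 0.38 without TGFb_MetR replicate 1 and 0.23 without replicate 2. Mmp2, gelatinase A, read 695 and 590.0 FPKM under MetR, 142 and 142 in control and 188 and 177 after TGF-β1 alone (2.16 ± 0.11, adjusted p = 1.29e-05). Mmp13, a collagenase, read 0.0428 and 0.130 FPKM in control, 0.0474 and 0.0937 under TGF-β1 alone and 2.36 and 14.7 under MetR, so that its rise of 2.74 ± 0.59 was 1.63 without TGFb_MetR replicate 2. Mmp19 rose by 1.60 ± 0.14, the inhibitor Timp3 by 1.71 ± 0.19 and the urokinase receptor Plaur by 1.58 ± 0.14, while Reck, a membrane inhibitor of metalloproteases, fell by 1.74 ± 0.14.

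Genes were next ordered by how their levels under MetR compared with both other groups. They were picked on these values, so the account is a description. Kept rises, raised in both treated groups, were led by Postn, Enpp1, Gadd45g, Il1rl1, Phlda1, Pmepa1 and Lama1. Enpp1, an ectonucleotidase, read 4.75 and 4.49 FPKM at rest, 95.2 and 88.2 under MetR and 114 and 126 under TGF-β1 alone. Il1rl1, the receptor of interleukin 33, read 46.9 and 26.9 FPKM under MetR, 0.346 and 0.476 in control and 15.9 and 15.5 after TGF-β1 alone. Gadd45g, a stress-induced growth arrest gene with a TGATGNAA match, read 23.3 and 21.1 FPKM in control, 322 and 407 under TGF-β1 alone and 2099.9 and 2142 under MetR, a rise of 3.97 with TGF-β1 alone and 6.52 under MetR. Its control and TGF-β1 levels and those under MetR formed 3 separate steps. Kept falls were led by Aldh3a1, Ccn3, Aox1, Scara5, Pla2g2a, Pdcd5, Tspan8 and Gas1. Aldh3a1, an aldehyde dehydrogenase, read 822 and 808 FPKM at rest, 33.2 and 16.0 under MetR and 25.5 and 25.2 under TGF-β1 alone. Pla2g2a, a secreted phospholipase, was at 19.3 and 15.4 FPKM in control, 0.436 and 0.0718 with TGF-β1 alone and listed at 0 in both libraries under MetR.

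Back at control level were genes that TGF-β1 alone had moved and that under MetR lay within 0.3 of control without a call. Raised by TGF-β1 alone, these were Mllt11, Cald1, Adamts12, Mir3120, Fzd1, Filip1l, Evi2a and Nrep. Mllt11 read 17.4 and 13.1 FPKM under MetR, 15.7 and 13.9 in control and 72.4 and 75.4 after TGF-β1 alone. Fzd1, a Wnt receptor, read 57.1 and 54.9 FPKM in control, 219 and 209 under TGF-β1 alone and 95.7 and 39.1 under MetR. Nrep, a neuronal regeneration-related protein, read 30.1 and 30.7 FPKM at rest, 52.5 and 19.1 under MetR and 101 and 122 under TGF-β1 alone. In Fzd1, Nrep and Adamts12 replicate 1 under MetR was above both controls and replicate 2 below both, and each gene was called on either side with the other replicate left out. Cald1, as given above, and Filip1l (0.67) were called above control without replicate 2. Lowered by TGF-β1 alone were Kitlg, Dpm3, Tenm4, Lrig1, Slpi, Ednra, Steap1 and Atp2b1. Kitlg, stem cell factor, read 15.9 and 20.5 FPKM under MetR, 23.8 and 20.9 in control and 3.31 and 3.16 after TGF-β1 alone. Lrig1, a brake on growth factor receptors, read 12.3 and 11.974 FPKM in control, 2.73 and 2.45 under TGF-β1 alone and 15.2 and 12.7 under MetR. Ednra, the endothelin A receptor, read 5.16 and 5.29 FPKM at rest, 4.60 and 4.73 under MetR and 0.959 and 1.105 under TGF-β1 alone. Without TGFb_MetR replicate 2, Kitlg (-0.46) and Dpm3 (-0.50) were called below control, and without replicate 1 Atp2b1 (0.59) above it. Under quantile normalization Kitlg (-0.37) and Tenm4 (0.46) were called, so a place at control level depends on the library or the scaling for these genes.

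New rises, near control with TGF-β1 alone, were led by Fmr1nb, Egr1, Tfec, Fgfbp3, SNORD83, Mmp13, Etv4 and Kcnj14. Fmr1nb, a gene of the FMR1 neighbourhood known from testis, was listed at 0 in both controls, at 0.0680 and 0.0672 with TGF-β1 alone and at 20.8 and 21.9 FPKM under MetR. Tfec, a transcription factor of the MiT family, read 17.9 and 14.2 FPKM under MetR, 0.722 and 0.833 in control and 0.608 and 0.677 after TGF-β1 alone (3.25 ± 0.14). Etv4, an ETS factor downstream of ERK, read 7.42 and 5.98 FPKM in control, 7.85 and 6.95 under TGF-β1 alone and 42.8 and 62.2 under MetR (2.78 ± 0.18). New falls were led by Angptl2, Fam25a, Loxl1, Acss2, Parp3, Acat2, Cd200r1 and Arg1. Angptl2, a secreted angiopoietin-like protein, read 79.0 and 79.4 FPKM at rest, 8.16 and 3.06 under MetR and 106 and 89.0 under TGF-β1 alone (-3.72 ± 0.32). Arg1, arginase, read 5.16 and 2.48 FPKM under MetR, 17.9 and 20.9 in control and 19.6 and 25.8 after TGF-β1 alone (-2.13 ± 0.26). Turned over from below to above control were Etv5, Crcp, Gm23346, Cxcl13 and Igfbp4, and the other way Akap5, Tpm2, Tgfb2, Odf3l1 and Mir143. Etv5, a close relative of Etv4, read 10.4 and 9.49 FPKM in control, 2.45 and 2.50 under TGF-β1 alone and 26.3 and 28.4 under MetR. Akap5, an anchor of protein kinase A, read 6.11 and 8.09 FPKM at rest, 1.01 and 0.381 under MetR and 43.6 and 32.5 under TGF-β1 alone. Mir3120, Mir143, SNORD83 and Gm23346 are short loci whose reads can come from a host gene, and Mir143 was listed at 0 under MetR. The strand setting of the counting is not given in the sources used here, so reads of overlapping or antisense genes cannot be told apart.

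**Figure D2:**
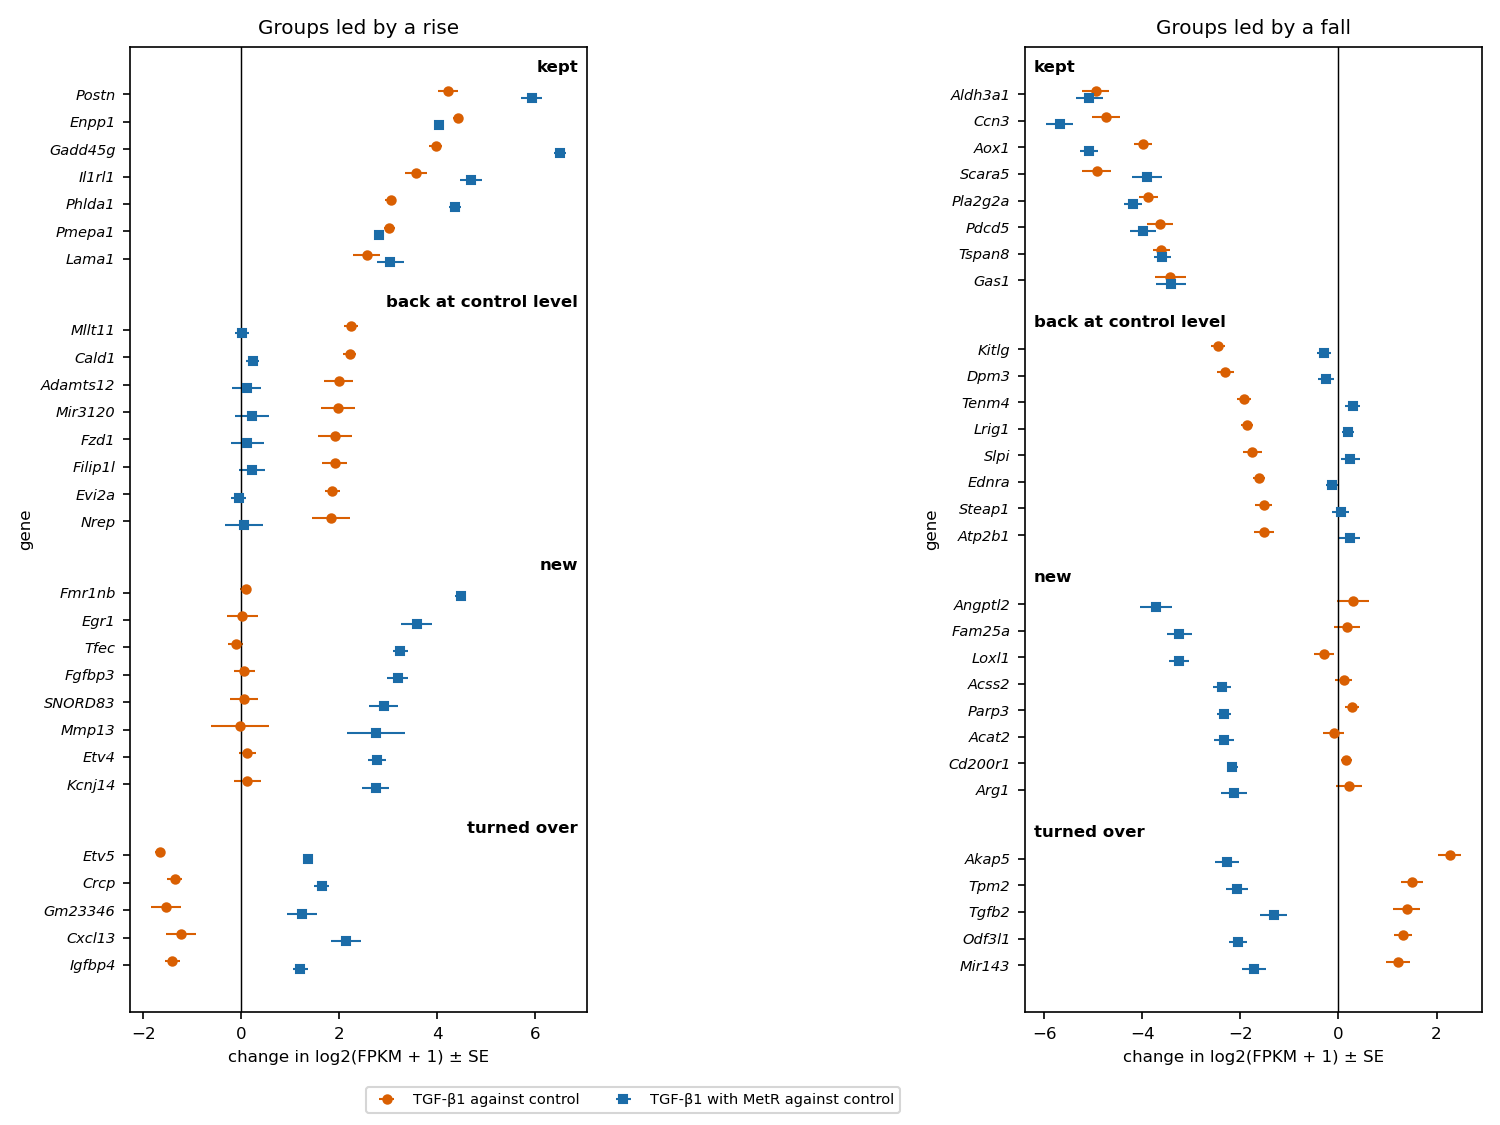
Change in log2(FPKM + 1) ± SE against control for the genes named as kept, back at control level, new or turned over, with TGF-β1 alone (circles) and under MetR (squares). The groups were chosen on these values, so their separation is a description. Among the kept genes Postn and Gadd45g stand higher under MetR than with TGF-β1 alone, and Enpp1 lower.

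Cells of both treated groups had far less proliferation mRNA than control, and most of the genes tested were lowest under MetR. Of the 42 replication and mitosis members 38 fell against control (90.5%, against 30.0% of all members) and 4 were not called (median -1.87). The counts were 38 and 4 with TGF-β1 alone (median -1.26). Tested against TGF-β1 alone, 25 were lower under MetR and 3 higher. Top2a, the topoisomerase that untangles chromosomes, read 0.346 and 0.256 FPKM under MetR, 32.9 and 31.8 in control and 6.18 and 7.83 after TGF-β1 alone (-4.68 ± 0.13, adjusted p = 2.27e-06). Ccnb1, cyclin B1, read 13.95 and 16.0 FPKM in control, 3.65 and 6.07 under TGF-β1 alone and 0.741 and 0.712 under MetR (-3.21 ± 0.19, adjusted p = 2.52e-05). Birc5, survivin, fell by 3.24 ± 0.20, Ccna2, cyclin A2, fell by 3.16 ± 0.12, the spindle motor Kif11 fell by 2.89 ± 0.13 and Gins1, of the replication helicase, fell by 2.75 ± 0.17. Of 19 members among cyclins D, CDK inhibitors and p53 targets 11 rose (57.9%, against 28.6% of all members) and 4 fell (21.1%, against 30.0%). Their median was 0.89. Gadd45a and Gadd45b rose beside Gadd45g. Gadd45a read 111 and 116 FPKM at rest, 637 and 1235 under MetR and 144 and 159.5 under TGF-β1 alone (2.95 ± 0.27, adjusted p = 0.000105). Gadd45b read 488 and 425 FPKM under MetR, 31.0 and 27.4 in control and 98.6 and 109 after TGF-β1 alone (3.92 ± 0.11, adjusted p = 3.07e-06). In each the libraries formed 3 separate levels, lowest at rest and highest under MetR, but the rise of Gadd45a with TGF-β1 alone was not called. Mdm2, the ubiquitin ligase of p53, rose by 2.21 ± 0.13, the pro-apoptotic Pmaip1 by 2.76 ± 0.17 and Phlda3, a repressor of AKT, by 2.11 ± 0.18.

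Genes of resting stroma were low in both treated groups. Of 26 members 20 fell under MetR (76.9%, against 30.0% of all members) and 3 rose (11.5%, against 28.6%), with a median of -1.88. With TGF-β1 alone 22 fell and 4 were not called (median -1.93). Ccn3, a matricellular relative of Ccn2, read 802 and 736 FPKM in control, 24.2 and 32.1 under TGF-β1 alone and 19.8 and 9.70 under MetR (-5.69 ± 0.28, adjusted p = 1.34e-05). Scara5, a ferritin receptor of adventitial fibroblasts, read 66.3 and 68.2 FPKM at rest, 5.61 and 2.15 under MetR and 1.25 and 1.22 under TGF-β1 alone (-3.90 ± 0.30, adjusted p = 5.47e-05). Selenop, the plasma selenium carrier, read 17.6 and 7.89 FPKM under MetR, 113 and 123 in control and 2.43 and 3.30 after TGF-β1 alone, so that its level under MetR was above that with TGF-β1 alone (1.74 ± 0.31, adjusted p = 0.00254) and still below control (-3.21 ± 0.31, adjusted p = 0.000129). Gas1, which rises at growth arrest, fell by 3.42 ± 0.31 and Aox1, aldehyde oxidase, fell by 5.09 ± 0.18.

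Most genes of the amino acid response stood above control under MetR, and few did with TGF-β1 alone. Of 33 members of the ATF4 list 26 rose (78.8%, against 28.6% of all members) and 7 were not called (median 0.90). With TGF-β1 alone 6 rose and 7 fell (median -0.05). Between the treated groups 25 were higher under MetR and 1 lower. With either MetR library left out, 1 fell against control. Chac1, which degrades glutathione and carries the TGATGNAA match shown above, read 36.03 and 31.6 FPKM in control, 56.0 and 58.7 under TGF-β1 alone and 224 and 234 under MetR (2.73 ± 0.10, adjusted p = 5.92e-06). Trib3, a pseudokinase that feeds back on ATF4, read 65.8 and 65.6 FPKM at rest, 191 and 299.9 under MetR and 45.8 and 47.6 under TGF-β1 alone (1.85 ± 0.19, adjusted p = 0.000158). Slc7a5, the large neutral amino acid transporter that brings in methionine, read 228 and 332 FPKM under MetR, 57.5 and 61.6 in control and 49.0 and 43.4 after TGF-β1 alone (2.19 ± 0.17, adjusted p = 5.56e-05). Neither library under MetR overlapped control in these 3 genes. Ppp1r15a, which restarts translation, rose by 2.52 ± 0.27, Atf3 by 2.51 ± 0.41 and the secreted Stc2 by 1.95 ± 0.20. Asns, asparagine synthetase, a classic ATF4 target named after its value was seen, rose only from 112 and 112 to 125 and 153 FPKM (0.30 ± 0.11, adjusted p = 0.0464).

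Of the enzymes and transporters of methionine use, Mat2a was far above control under MetR. Of 23 members of the methionine cycle list 9 rose (39.1%, against 28.6% of all members) and 7 fell (30.4%, against 30.0%). The median of 0.16 was 0.47 without TGFb_MetR replicate 1, -0.02 without replicate 2 and 0.10 without control replicate 2. Mat2a, the enzyme that makes S-adenosylmethionine from methionine, read 66.6 and 63.2 FPKM in control, 69.8 and 74.6 under TGF-β1 alone and 293 and 402 under MetR. Both libraries under MetR were over 4 times the control level (2.38 ± 0.15, adjusted p = 2.58e-05), and the change with TGF-β1 alone was not called (0.15 ± 0.15, adjusted p = 0.443). The list also shares Slc7a5 and Slc38a2 with the ATF4 list, the latter at 1.07 ± 0.11. Ahcyl1, a relative of S-adenosylhomocysteine hydrolase, fell from 85.4 and 78.5 to 31.8 and 31.0 FPKM (-1.35 ± 0.09, adjusted p = 2.96e-05), and Ahcyl2 rose by 1.04 ± 0.12. Of 20 serine, glycine and folate genes 9 rose (45.0%, against 28.6% of all members) and 6 fell (30.0%, as of all members). Fewer falls were called without control replicate 2. Shmt2, the mitochondrial enzyme that moves one-carbon units from serine, rose from 109.7 and 108 to 293 and 364 FPKM (1.58 ± 0.12, adjusted p = 4.80e-05) and Psph, the last step of serine synthesis, by 1.61 ± 0.19. Cytosolic Shmt1 fell by 0.81 ± 0.11.

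Immediate early genes, which growth factors and stress switch on within minutes, were high at the labelled 48 h under MetR. Of 27 members 21 rose (77.8%, against 28.6% of all members) and 1 fell (3.70%, against 30.0%), with a median of 1.60. With TGF-β1 alone 7 rose and 2 fell (median 0.27). Egr1, the zinc finger factor with a pair of CArG boxes, read 1.71 and 4.55 FPKM at rest, 39.5 and 52.7 under MetR and 2.80 and 3.10 under TGF-β1 alone (3.59 ± 0.32, adjusted p = 9.26e-05). The controls differed from each other more than those with TGF-β1 alone, and both libraries under MetR were above all 4. Ier2 read 132 and 325 FPKM under MetR, 17.7 and 15.4 in control and 20.8 and 27.6 after TGF-β1 alone (3.57 ± 0.37, adjusted p = 0.000174). Fosl1, the AP-1 subunit Fra-1, read 8.41 and 8.43 FPKM in control, 13.2 and 13.1 under TGF-β1 alone and 44.2 and 129 under MetR (3.03 ± 0.41, adjusted p = 0.000589). Dusp6, the phosphatase that turns off ERK, rose by 2.80 ± 0.28 and Maff, a small Maf factor, by 2.69 ± 0.16. Replicate 2 under MetR was the higher library in all of these.

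Most lipid synthesis genes were lower under MetR than in either other group. Of 35 members of the cholesterol and fatty acid list 29 fell against control (82.9%, against 30.0% of all members) and 2 rose (5.71%, against 28.6%). The median was -0.76. With TGF-β1 alone 4 fell and 8 rose (median 0.06). Between the treated groups 29 were lower under MetR and 6 not called. The 2 rises were not called without control replicate 1 or 2. Tm7sf2, a sterol reductase, read 27.4 and 25.4 FPKM at rest, 2.05 and 1.43 under MetR and 41.9 and 48.2 under TGF-β1 alone (-3.33 ± 0.14, adjusted p = 9.58e-06). Acss2, which makes acetyl-CoA from acetate, read 2.04 and 1.16 FPKM under MetR, 12.2 and 12.4 in control and 14.5 and 12.2 after TGF-β1 alone (-2.38 ± 0.18, adjusted p = 4.72e-05). Acat2 fell by 2.34 ± 0.21, the desaturase Fads1 fell by 2.28 ± 0.19 and its relative Fads2 fell by 2.08 ± 0.29, and Dhcr7, the last step to cholesterol, fell by 1.76 ± 0.18. The median of the list was -0.68 in replicate 1 under MetR and -0.92 in replicate 2, over the control mean.

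Messenger RNAs of cytosolic ribosomal proteins fell as a group. Of 70 members 66 fell (94.3%, against 30.0% of all members) and 4 were not called (median -1.63). With TGF-β1 alone 26 fell and 44 were not called (median -0.32). They held 11.0% and 11.4% of the summed FPKM in control, 8.38% and 9.65% with TGF-β1 alone and 4.61% and 4.94% under MetR. Rpl3 read 446 and 447 FPKM in control, 203 and 241 under TGF-β1 alone and 71.4 and 84.9 under MetR (-2.50 ± 0.12, adjusted p = 1.24e-05). Rps4x read 486 and 478 FPKM at rest, 82.3 and 85.9 under MetR and 250.4 and 304 under TGF-β1 alone (-2.51 ± 0.12, adjusted p = 1.17e-05). Rps29 (-3.13 ± 0.28), Rpl37 (-2.78 ± 0.13), Rpl17 (-2.48 ± 0.13) and Rpl39 (-2.39 ± 0.16) fell too. These genes have near-identical copies in the genome, and how reads shared with the copies were counted is not given in the sources used here, so the levels of single ribosomal genes are uncertain.

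**Figure D3:**
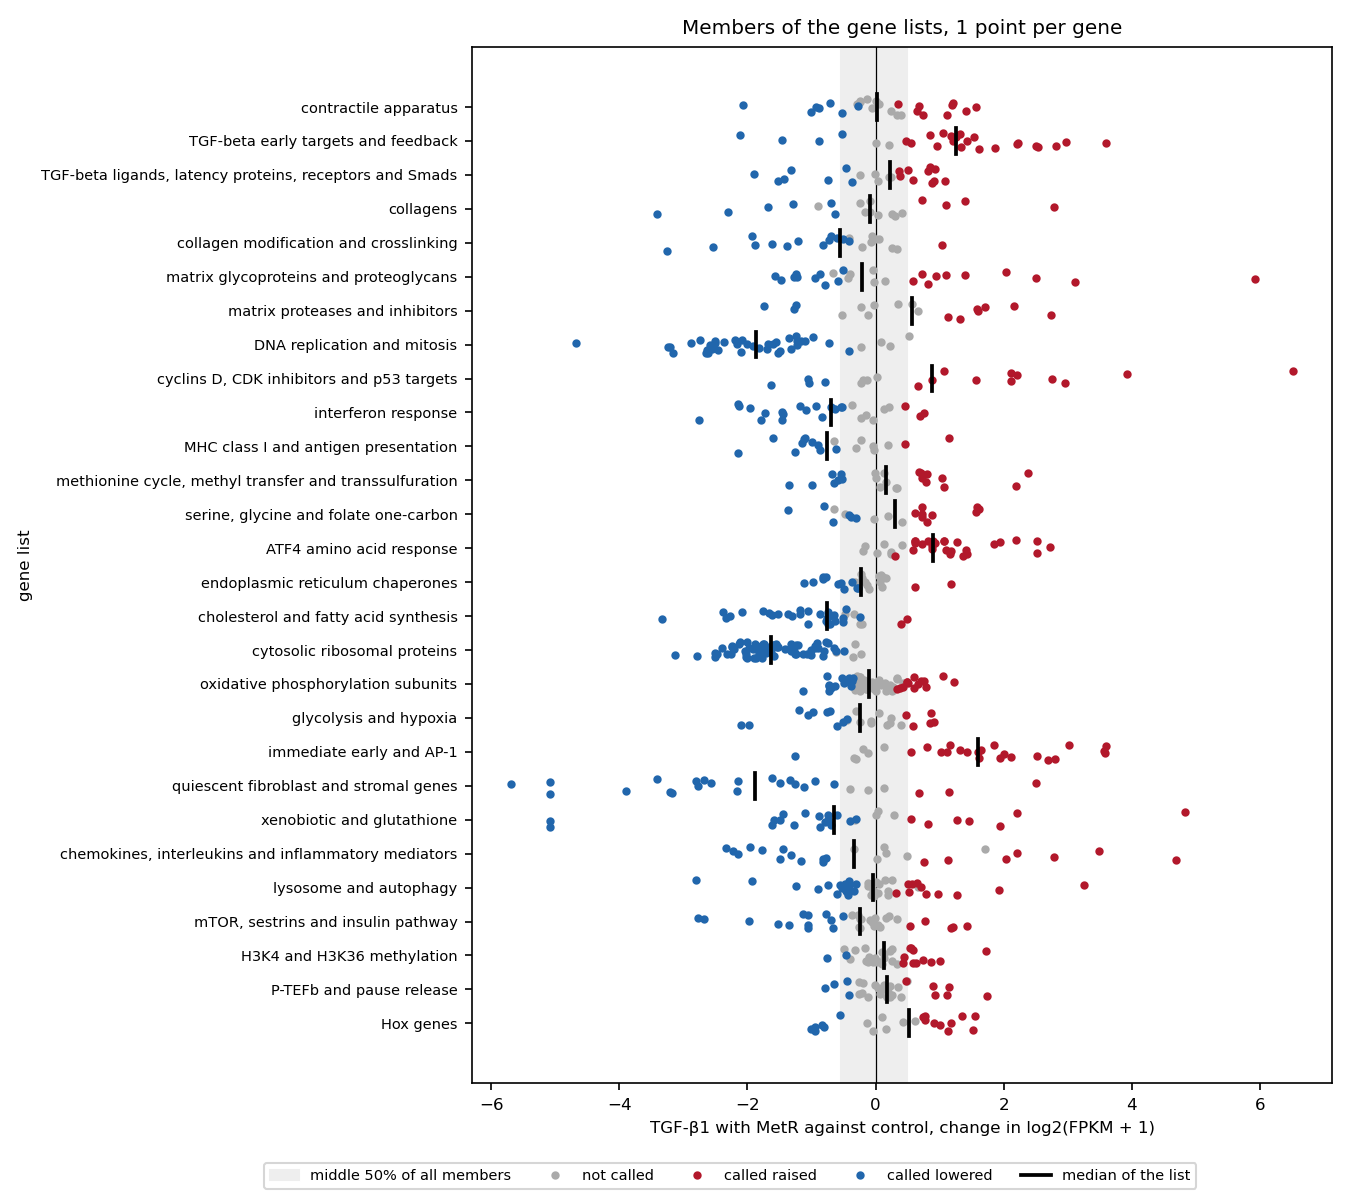
Change under MetR against control in log2(FPKM + 1) for each member of 28 gene lists, coloured by call, with the median of the list as a bar and the middle 50% of all members shaded. Replication and mitosis, resting stroma and ribosomal protein genes lie mostly below 0, and the ATF4, immediate early and early TGF-β target lists mostly above it.

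Most interferon and antigen presentation genes were below control. Of 27 interferon response members 18 fell under MetR (66.7%, against 30.0% of all members) and 3 rose (11.1%, against 28.6%). The median was -0.70. With TGF-β1 alone 23 fell and 1 rose (median -1.13). Between the treated groups 11 were higher under MetR and 6 lower (median 0.30, all members 0.19). Ifi35 and Isg20, named next, were lowest under MetR. Ifi35 read 4.77 and 3.04 FPKM under MetR, 32.0 and 31.0 in control and 10.2 and 13.4 after TGF-β1 alone (-2.75 ± 0.19, adjusted p = 3.59e-05). Isg20, an exonuclease, read 20.5 and 20.6 FPKM in control, 14.8 and 15.2 under TGF-β1 alone and 3.46 and 4.39 under MetR (-2.13 ± 0.13, adjusted p = 2.66e-05). Irf7, a transcription factor of the interferon response, fell by 1.79 ± 0.17 and Parp14 fell by 1.96 ± 0.12. Of 18 antigen presentation members 10 fell and 2 rose, and neither rise was called without TGFb_MetR replicate 2 or without either control replicate, while under quantile normalization 3 rose. Against control under MetR the falls were 55.6% of these members and the rises 11.1%, against 30.0% and 28.6% of all members. With TGF-β1 alone 14 of the 18 fell and 4 were not called. Between the treated groups 6 were higher under MetR and 4 lower. Psmb9, an immunoproteasome subunit, read 25.4 and 27.0 FPKM at rest, 5.22 and 5.00 under MetR and 10.1 and 12.9 under TGF-β1 alone (-2.15 ± 0.14, adjusted p = 3.16e-05). Tapbp, tapasin, fell by 1.12 ± 0.09. Of 25 chemokines, interleukins and mediators 7 rose (28.0%, against 28.6% of all members) and 12 fell (48.0%, against 30.0%). The median was -0.34 (-1.17 with TGF-β1 alone), but -0.13 without TGFb_MetR replicate 1, -0.55 without replicate 2 and 0.03 among genes with a mean of at least 5 FPKM. Il6 read 14.4 and 21.3 FPKM under MetR, 0.587 and 0.701 in control and 1.24 and 1.05 after TGF-β1 alone (3.50 ± 0.21, adjusted p = 2.49e-05). Lif, of the same cytokine family, read 7.91 and 8.45 FPKM in control, 10.3 and 7.97 under TGF-β1 alone and 35.6 and 47.9 under MetR (2.20 ± 0.18, adjusted p = 6.36e-05). Ptgs2, the inducible cyclooxygenase, rose by 2.79 ± 0.15, while Lcn2, lipocalin 2, fell by 2.33 ± 0.20 and Cxcl3 fell by 2.22 ± 0.19.

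Hoxc8, the gene targeted in another arm of the series, read 1.12 and 1.34 FPKM at rest, 0.417 and 0.614 under MetR and 4.32 and 5.01 under TGF-β1 alone. TGF-β1 alone raised it (1.34 ± 0.19, adjusted p = 0.00171), and under MetR it was lower than with TGF-β1 alone (-1.90 ± 0.19, adjusted p = 0.000272) in all libraries. Its fall below control (-0.56 ± 0.19, adjusted p = 0.0386) was at low levels, and the call was lost in 10 of 16 alternatives. The adjusted p was 0.106 with a pseudocount of 0.1, 0.0560 with no filter, 0.197 under quantile normalization, 0.183 with library weights and 0.0532 with the replicate block. Without TGFb_MetR replicate 1 the adjusted p was 0.119, without control replicate 1 or 2 0.0854 or 0.163, and without TGFb replicate 1 or 2 0.0571 or 0.0573. Of 22 Hox members 10 rose (45.5%, against 28.6% of all members) and 6 fell (27.3%, against 30.0%), with a median of 0.53. Hoxb6 read 124 and 92.9 FPKM under MetR, 37.5 and 34.6 in control and 51.3 and 58.6 after TGF-β1 alone (1.55 ± 0.16, adjusted p = 0.000198), and Hoxb4, Hoxb13, Hoxb2, Hoxb8 and Hoxd13 rose by 1.52 ± 0.12, 1.36 ± 0.19, 1.19 ± 0.15, 1.14 ± 0.15 and 1.01 ± 0.12. Neighbouring Hox genes overlap with antisense transcripts, so their reads may be shared.

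Of the genes of histone H3K4 and H3K36 methylation, marks that draw on S-adenosylmethionine, most were not called against control under MetR. Of 32 members 11 rose and 2 fell (median 0.13, 0.21 without TGFb_MetR replicate 1, and -0.35 with TGF-β1 alone), the rises being 34.4% against 28.6% of all members. Without control replicate 2 the rises numbered 7 and the falls 1, while the falls were 4 without TGFb_MetR replicate 1 and 1 without control replicate 1. With TGF-β1 alone 12 of the 32 fell and 20 were not called. Between the treated groups 19 were higher under MetR and 13 not called (median 0.50, all members 0.19). Setd2, the H3K36 trimethylase, read 16.7 and 16.9 FPKM in control, 12.9 and 11.2 under TGF-β1 alone and 26.0 and 27.1 under MetR (0.63 ± 0.11, adjusted p = 0.00182). Setd1b, an H3K4 methylase, rose by 1.00 ± 0.19 and Riox1, also of this list, by 1.72 ± 0.16. Kmt2d was 0.74 ± 0.19, with an adjusted p of 0.0601 without control replicate 2. For P-TEFb and pause release, 6 of 29 members rose (20.7%, against 28.6% of all members) and 4 fell (13.8%, against 30.0%), both below those shares. The counts were 11 and 4 without TGFb_MetR replicate 1, 7 and 8 without replicate 2, and 5 and 2 without control replicate 1. Cdk9, the kinase of P-TEFb that phosphorylates RNA polymerase II, read 52.1 and 53.2 FPKM at rest, 153 and 206 under MetR and 59.9 and 68.2 under TGF-β1 alone (1.74 ± 0.14, adjusted p = 7.26e-05). Its inhibitor Hexim1 rose by 0.90 ± 0.13, the elongation factor Ell by 1.15 ± 0.12 and Nelfcd, of the pausing complex, fell by 0.79 ± 0.11.

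**Figure D4:**
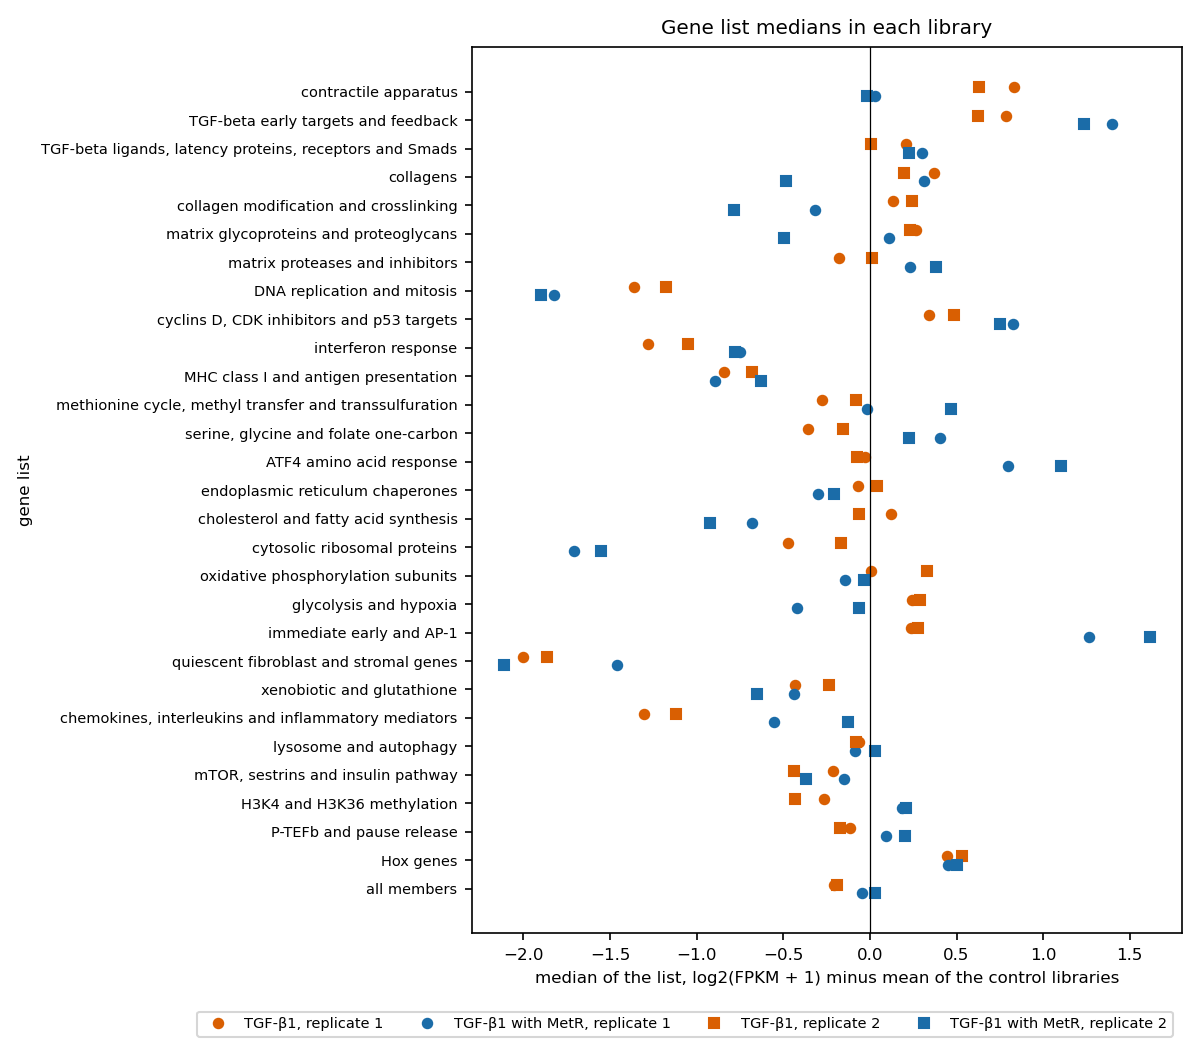
Median of each gene list in each library with TGF-β1 (orange) or under MetR (blue), as log2(FPKM + 1) minus the mean of the control libraries. The 2 libraries under MetR lie on opposite sides of 0 for collagens, at 0.31 and -0.48, and on the same side for ribosomal proteins, at -1.71 and -1.55.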

How the data were processed

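RNA-seq values were deposited by the authors as FPKM per gene in 1 table of 8 libraries. Per the submitters' processing notes, which give no roles, the tools were featureCounts, deepTools, Bowtie2 2.3.5.1 and Trim Galore, on the build rn6. Neither annotation nor strand setting is given in the sources used here. No counts were used as a main result. Whole reads were recovered from the steps of the FPKM values for 100% of genes above 0, within 0.02 reads, and gave 15118113 to 20146870 reads per library.

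The test took the 12315 genes that reached 1 FPKM in 2 or more of the 8 libraries, and 11914 of these met the same rule in the 4 libraries compared. Log2(FPKM + 1) was fitted with limma 3.58.1 in R 4.3.3, with a mean trend and 1 coefficient per group over all 8 libraries, so that the groups share 1 estimate of the spread (4 residual and 3.47 prior degrees of freedom). P-values were adjusted over all tested genes by Benjamini-Hochberg. The limma procedure was tested on simulated data. Tables and figures used Python 3.11.15, pandas 2.3.3, numpy 2.4.6 and matplotlib 3.10.9.

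Named genes were 12 anchors whatever their result, the 12 largest called changes each way, 8 kept, 8 back and 8 new genes each way, 5 turned over each way and up to 6 called genes per list, with at least 5 FPKM in the highest group and no overlap of libraries in parts chosen by size. The remaining genes named were chosen after their values were seen, as the text says. Some genes that the rule names are not reported here. Members and lists were chosen with earlier results of these data known. The 20 ChIP and input samples and the Hoxc8 knockdown comparison were not analysed here. Promoter sequences are from RefSeq (GRCr8), matched by symbol for 163 of 220 named genes.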

Additional observations from a re-analysis of the deposited data

How the results depend on the processing

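Under each of 17 alternatives (another pseudocount, filters, scalings, limma on the 4 libraries alone, library weights, a replicate block, voom on recovered reads, and each library left out) the counts of members raised and lowered against control under MetR lay within 1.5 times the values reported. They lay between 2413 and 3888 raised and 2695 and 3693 lowered with 1 library left out, and were 3454 and 3638 with voom. With limma on the 4 libraries alone 2849 rose and 3118 fell, and with library weights 2953 and 3057. Voom and the leave-one-out counts of the gene lists were chosen after seeing the data. With TGF-β1 alone, median ratio rescaling gave 2275 raised and 2080 lowered, quantile normalization 1991 and 2099, and leaving out 1 library 584 to 1690 raised and 1697 to 4512 lowered, the lowest counts being those without control replicate 1. The counts between the treated groups with 1 library left out were 3444 to 4751 and 1741 to 2469.

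The labels tie same-numbered replicates to nothing shared. Their deviations correlated at 0.01 between control and TGFb, -0.01 between control and TGFb_MetR and 0.20 between TGFb and TGFb_MetR. The fit with the replicate number as a block gave 3408 raised and 3561 lowered against control under MetR, 1209 and 3458 with TGF-β1 alone, and 4275 and 2263 between the treated groups.

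Of 220 named genes, 199 kept their direction and their side of the threshold against control under MetR in every alternative, 9 lost the call in at least 1, 12 gained it and 4 changed sign, some of them in more than 1 of these ways. The kept, back, new and turned-over groups also rest on calls with TGF-β1 alone, which were less stable. There 12 of the 220 lost the call and 12 gained it under median ratio rescaling. With limma on the 4 libraries compared alone 23 gained it and 1 lost it, and with library weights 21 gained it. Leaving out a control or a TGFb_MetR library moved still more of these calls, so the sorting into these groups is uncertain for many genes. Cxcl13, named as turned over, lost that call in 4 of 17 alternatives. Without TGFb_MetR replicate 1 and then without replicate 2, the changes against control were -1.29 and 0.97 for Col3a1, -0.41 and 0.64 for Adamts12, -0.51 and 0.76 for Fzd1 and -0.65 and 0.77 for Nrep. Against TGF-β1 alone they were -1.81 and 0.45 for Col3a1, -0.63 and 0.38 for Aldh3a1, -0.55 and 0.58 for Gas1 and -0.43 and 1.61 for Thbs2. The cause of these moves was not tested. With 2 libraries per group and 4 residual degrees of freedom, small changes of genes that vary between replicates were not detectable.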

Other observations

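Xenobiotic and glutathione genes were more often lowered than raised against control, with 17 of 28 members lowered and 7 raised (median -0.65). Cyp3a9, a cytochrome P450, read 35.4 and 48.1 FPKM under MetR, 0.516 and 0.447 in control and 0.0816 and 0.161 after TGF-β1 alone (4.83 ± 0.17, adjusted p = 5.92e-06). Hmox1, heme oxygenase, read 19.0 and 20.9 FPKM in control, 13.6 and 11.9 under TGF-β1 alone and 73.7 and 85.1 under MetR (1.94 ± 0.11, adjusted p = 2.28e-05), and Cyp26b1, which clears retinoic acid, rose by 2.20 ± 0.24. Of 41 lysosome and autophagy members 11 rose (26.8%, against 28.6% of all members) and 16 fell (39.0%, against 30.0%). The median was -0.04, and fewer falls were called without either control replicate. Gpnmb, a lysosomal glycoprotein, read 494 and 488 FPKM at rest, 87.7 and 55.6 under MetR and 298 and 289 under TGF-β1 alone (-2.80 ± 0.19, adjusted p = 3.45e-05), and the sialidase Neu1 85.0 and 85.3 FPKM under MetR, 21.5 and 21.7 in control and 137 and 145 after TGF-β1 alone (1.93 ± 0.09, adjusted p = 1.17e-05). In the mTOR and insulin list 13 of 33 members fell (39.4%, against 30.0% of all members) and 5 rose (15.2%, against 28.6%). Deptor, an inhibitor of mTOR, read 62.0 and 65.8 FPKM in control, 3.01 and 2.23 under TGF-β1 alone and 12.7 and 5.61 under MetR (-2.77 ± 0.30, adjusted p = 0.000241), and Eif4ebp1, which holds back translation, 59.0 and 55.2 FPKM at rest, 134 and 179.6 under MetR and 81.0 and 93.6 under TGF-β1 alone (1.43 ± 0.15, adjusted p = 0.000182).

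Of 25 glycolysis and hypoxia members 5 rose (20.0%, against 28.6% of all members) and 10 fell (40.0%, against 30.0%), with 8 rises without TGFb_MetR replicate 1 and 9 under quantile normalization. Pdk1, which keeps pyruvate out of mitochondria, read 2.39 and 3.95 FPKM under MetR, 16.5 and 16.7 in control and 15.3 and 12.9 after TGF-β1 alone (-2.10 ± 0.18, adjusted p = 8.84e-05), and Gpi, of upper glycolysis, 162 and 163 FPKM in control, 192 and 212 under TGF-β1 alone and 76.8 and 63.7 under MetR (-1.20 ± 0.11, adjusted p = 0.000115). Of 63 oxidative phosphorylation members 14 rose and 14 fell, 22.2% each and below those shares, and without control replicate 1 or 2 the rises were 6 or 9 and the falls 9 or 7, against 18 and 25 under quantile normalization. Cox6a1 read 325 and 338 FPKM at rest, 777 and 769 under MetR and 416 and 522 under TGF-β1 alone (1.22 ± 0.12, adjusted p = 0.000166). Of 26 endoplasmic reticulum chaperones 2 rose (7.69%, against 28.6% of all members) and 11 fell (42.3%, against 30.0%). Fewer falls were called without either control replicate, and more rises without TGFb_MetR replicate 1. Hspa5, the chaperone BiP, read 596 and 994 FPKM under MetR, 339 and 337 in control and 283 and 326 after TGF-β1 alone (1.18 ± 0.22, adjusted p = 0.00253), while the disulfide isomerase Pdia6 fell by 1.12 ± 0.11.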
